A study of Komagataella phaffii GS115 with 6 samples.

Results

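Transcripts of 3 genes of aromatic amino acid metabolism were followed in the methylotrophic yeast Komagataella phaffii (Pichia pastoris) GS115: the chorismate mutase gene ARO7 (PAS_chr4_0050), the aromatic aminotransferase gene ARO8 (PAS_chr1-3_0154) and the phenylpyruvate decarboxylase gene ARO10 (PAS_chr3_0095). They were taken by locus identifier and are 3 of the 115 genes in the table analysed here. RNA-seq libraries came from cells grown for 48 h in BMMY with 1% maltose (3 libraries) or in BMMY alone (3 libraries). BMMY is a buffered complex medium that contains methanol as a carbon source. All libraries are labelled wild type and yeast cells, and the strain, the methanol medium and the time are common to both groups. The series concerns maltose and recombinant collagen production, but the labels do not state whether these cells had a collagen construct. The labels do not say whether replicates were separate cultures, so errors measure only the spread between these libraries, which may be technical.

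The 115 genes are those that the authors' deposited table marks as changed between the media, with absolute log2 fold changes of at least 1.00. The genes ARO7, ARO8 and ARO10 were therefore chosen on the comparison described here, and their differences are given as descriptions. Calls against a threshold, for them and for other listed genes, come from the same libraries and are not independent evidence. In the authors' deposited table the log2 fold change, maltose over BMMY, was 1.03 for ARO7, -2.20 for ARO8 and -1.39 for ARO10. ARO7 lay near the edge of that selection, with 9 of the 56 positive genes below it and the lowest of them at 1.00. Genes outside the selection were not analysed here.

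Yeasts build phenylalanine and tyrosine from chorismate. Chorismate mutase, the product of ARO7, turns chorismate into prephenate and so commits it to these amino acids and away from tryptophan. Prephenate then gives the aromatic keto acids, and an aminotransferase adds the amino group. Breakdown in Saccharomyces cerevisiae runs by the Ehrlich pathway: an aminotransferase such as Aro8 or Aro9 removes the amino group, Aro10 decarboxylates the keto acid to an aldehyde, and the aldehyde is reduced to a fusel alcohol such as 2-phenylethanol or oxidised to an acid. Aro8 thus serves both directions, while ARO7 stands on the side of synthesis and ARO10 on that of breakdown. The aminotransferases use a vitamin B6 cofactor, and Aro10 uses thiamine diphosphate.

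The names do not rest on equal evidence. The deposited annotation describes PAS_chr4_0050 as chorismate mutase and places it under phenylalanine, tyrosine and tryptophan biosynthesis. PAS_chr3_0095 is described as a phenylpyruvate decarboxylase, carries thiamine pyrophosphate enzyme domains, has an Ehrlich pathway term and is placed under phenylalanine metabolism. PAS_chr1-3_0154 is a hypothetical protein with no pathway and no gene ontology term. Its name ARO8 comes only from its similarity to the S. cerevisiae aromatic and aminoadipate aminotransferase, an enzyme that in S. cerevisiae also acts in lysine synthesis.

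With maltose, the gene of the shared aminotransferase step and the gene of the breakdown step were lower in all libraries, and the gene of the synthesis step was higher on average, with overlapping groups. ARO8 was 5.93-fold lower, ARO10 was 3.33-fold lower and ARO7 was 1.59-fold higher, as ratios of mean FPKM (fragments per unit of gene length and of library size). ARO8 and ARO10, 2 of the 3, had an adjusted p below 0.05 in edgeR's quasi-likelihood test, beside 93.8% of the 112 listed genes fitted. That share follows from the selection of the list, and nothing is read from it. ARO7 was past the threshold as well in 6 alternatives: without BMMY replicate 1, with the authors' scaling, with equal medians, with DESeq2 and with limma on log2 FPKM at either pseudocount.

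ARO7 had 343, 391 and 468 FPKM in maltose replicates 1, 2 and 3, against 380, 195 and 178 FPKM in BMMY replicates 1, 2 and 3. BMMY replicate 1 lay inside the maltose range, and the other BMMY libraries lay below every maltose library. The means were 400.5 ± 63.4 FPKM with maltose and 251 ± 111.8 FPKM in BMMY (SD, n = 3 each). The log2 fold change was 0.67 (SE 0.31), and without BMMY replicate 1 it was 1.10. Its direction depended on the scaling between libraries: it was -0.13 where libraries were scaled to the same total FPKM of listed genes. That scaling rests on genes selected as changed, and it shifted the fitted fold changes by a median of -0.86. TMM and equal medians rest on the same selected genes. The log2 fold change of ARO7 was 0.24 (SE 0.21) with TMM, not past the threshold, and 1.00 with equal medians, past it. Reads of the listed genes were 14.9% to 15.3% of the implied depth with maltose and 6.83% to 10.1% in BMMY. Read counts of ARO7 were between 14030 and 16089 with maltose and between 8102 and 17147 in BMMY, so counting error was at most 1.11% of any value and the spread in BMMY was 44.5% of the mean.

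ARO8 had 12.9, 14.4 and 15.2 FPKM in maltose replicates 1, 2 and 3, against 85.3, 67.7 and 99.6 FPKM in BMMY replicates 1, 2 and 3. The groups did not overlap, and the lowest BMMY library was 4.44-fold above the highest maltose library. The means were 14.2 ± 1.17 FPKM with maltose and 84.2 ± 16.0 FPKM in BMMY (SD, n = 3 each), a log2 fold change of -2.57 (SE 0.21). BMMY replicate 1, which was high for ARO7, was the middle BMMY library for ARO8. By its FPKM ratio ARO8 was the 9th most lowered of the 115 genes. The counts behind these values were 656 to 873 reads per maltose library and 5537 to 6506 reads per BMMY library.

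ARO10 had 17.0, 17.7 and 29.5 FPKM in maltose replicates 1, 2 and 3, against 70.5, 67.7 and 75.7 FPKM in BMMY replicates 1, 2 and 3. The groups did not overlap, and the lowest BMMY library was 2.29-fold above the highest maltose library. The means were 21.4 ± 7.05 FPKM with maltose and 71.3 ± 4.07 FPKM in BMMY (SD, n = 3 each), a log2 fold change of -1.73 (SE 0.25). The spread was on the maltose side, 32.9% of the mean against 5.71% in BMMY, and came from maltose replicate 3. That library had 1899 reads for ARO10 at the lowest implied depth of the 6, while replicates 1 and 2 had 1709 and 1474. Without maltose replicate 3 the log2 fold change of ARO10 was -2.04. Groups that did not overlap were seen in 94.6% of the 112 genes fitted, 50.0% with maltose lower and 44.6% with maltose higher, shares that the selection also sets.

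**Figure D1:**
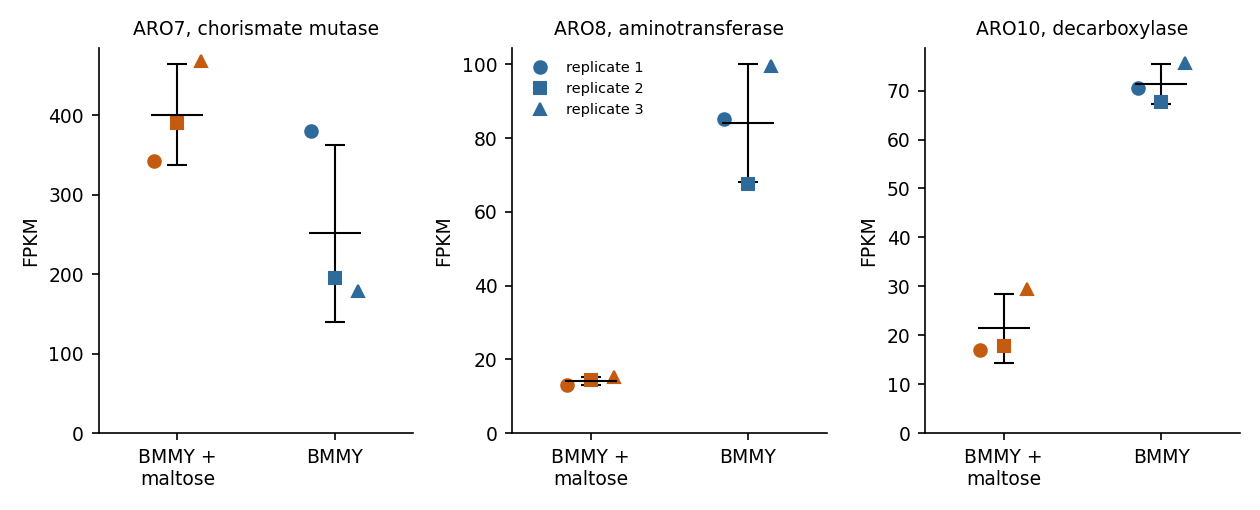
FPKM of ARO7, ARO8 and ARO10 (vertical axes, each from 0) in the maltose libraries and the BMMY libraries, with the replicate number shown by the marker shape and the bars giving mean and SD (n = 3). BMMY replicate 1 reaches 380 FPKM of ARO7 and lies inside the maltose range, while for ARO8 and ARO10 every maltose library is below every BMMY library.

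Among fitted genes with a positive fold change, 47 of 56, ARO7 among them, had their highest BMMY value in replicate 1. Among those with a negative one, 23 of 56 did. Maltose replicate 3 was the highest maltose library in 40 of the 56 genes with negative fold changes, ARO8 and ARO10 among them, and in 27 of the 56 with positive ones, ARO7 among them. The implied depth of this library was 35.3 M fragments, and those of the other 5 lay between 45.6 and 76.1 M. The part of depth in these orders was not tested.

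Synthesis and breakdown were next set against each other within each library, where the scaling between libraries cancels. Transcript levels of ARO7 per length were above those of ARO10 in all 6 libraries. ARO7 FPKM was 20.2, 22.0 and 15.9 times that of ARO10 in maltose replicates 1, 2 and 3, against 5.39, 2.89 and 2.36 times in BMMY replicates 1, 2 and 3. The log2 ratio of ARO10 to ARO7 averaged -4.26 ± 0.25 with maltose and -1.73 ± 0.62 in BMMY (SD, n = 3 each), a shift of -2.53. The groups did not overlap, and BMMY replicate 1 was the BMMY library nearest to the maltose libraries. ARO10 was listed as lower and ARO7 as higher on these same libraries, so the sign of this shift was largely fixed in advance. Taken singly, 94.6% of the 112 genes fitted also had groups that did not overlap, so nothing is read from the separation.

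The same held for the shared aminotransferase. ARO7 FPKM was 26.5, 27.0 and 30.8 times that of ARO8 in maltose replicates 1, 2 and 3, against 4.45, 2.89 and 1.79 times in BMMY replicates 1, 2 and 3. The log2 ratio of ARO8 to ARO7 averaged -4.81 ± 0.12 with maltose and -1.51 ± 0.66 in BMMY, a shift of -3.30. The selection of the list largely set the sign of this shift as well. With each library left out in turn, this shift ran from -3.62 to -2.97, and that of ARO10 to ARO7 from -2.88 to -2.28.

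The order of ARO8 and ARO10 also differed between the media. ARO8 over ARO10 was 0.762, 0.814 and 0.515 in maltose replicates 1, 2 and 3, against 1.21, 1.00 and 1.32 in BMMY replicates 1, 2 and 3. ARO8 was thus the lower of the pair in every maltose library, and the higher or equal one in every BMMY library. In BMMY replicate 2 the FPKM values of the pair agreed to within 0.01, so the order of the levels in BMMY rests on replicates 1 and 3. The log2 ratio averaged -0.55 ± 0.36 with maltose and 0.22 ± 0.20 in BMMY, a shift of -0.77, or -0.57 without maltose replicate 3.

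**Figure D2:**
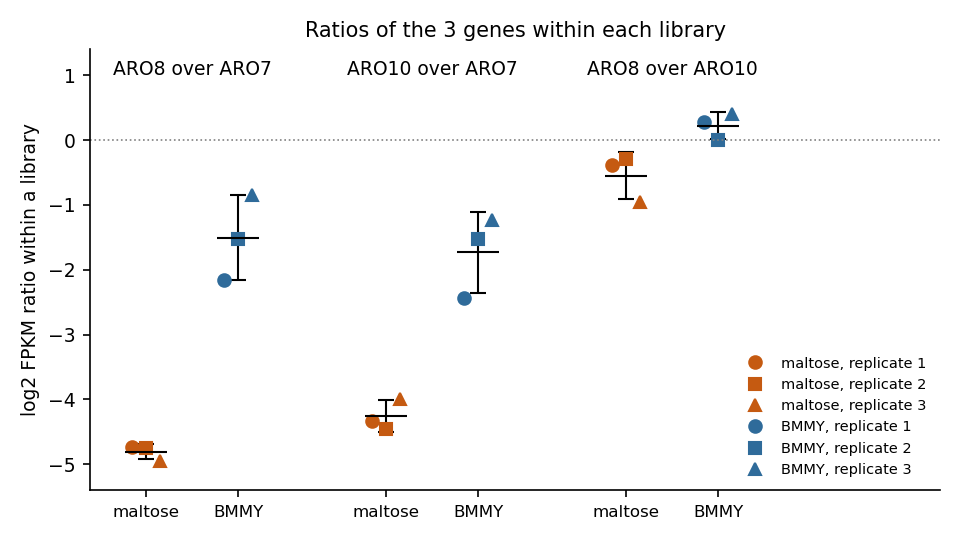
Log2 of the FPKM ratio within each library (vertical axis) for ARO8 over ARO7, ARO10 over ARO7 and ARO8 over ARO10, maltose libraries to the left of BMMY libraries, with mean and SD (n = 3). The maltose libraries are below the BMMY libraries in each pair, with mean differences of -3.30, -2.53 and -0.77. For the ratios to ARO7 the selection of the list largely sets this direction.

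Among the listed genes by FPKM, where rank 1 is the highest level, ARO7 ranked 29 to 30 of 115 with maltose and 33 to 36 in BMMY. ARO8 ranked 73 to 74 with maltose and 51 to 59 in BMMY. ARO10 ranked 63 to 70 with maltose and 57 to 58 in BMMY. ARO7 thus stood a few places higher with maltose among these selected genes, while ARO8 and ARO10 stood lower, ARO8 by more places.

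The listed genes of aromatic amino acid metabolism, taken from the deposited pathway annotation and from a list of symbols for synthesis, breakdown and uptake, numbered 7. Of these, 3 passed the threshold as higher with maltose, 3 as lower and 1, ARO7, did not pass, and their median log2 fold change was 0.67. Over all 112 genes fitted the share past the threshold as higher was 43.8% and the share as lower was 50.0%. Their median, -0.35, falls in the gap that the selection leaves between -1.34 and 0.63, so it is no typical value. The medians were 0.80 for genes with positive fold changes and -1.64 for those with negative ones. ARO7 was the one listed gene of phenylalanine, tyrosine and tryptophan biosynthesis, and ARO10 the one of phenylalanine metabolism. Other genes of the route from chorismate were not analysed here, so the comparison of synthesis with breakdown rests on these 3 genes.

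FLD1 and ALD5, 2 dehydrogenase genes that the annotation places in aromatic amino acid pathways, passed as higher with maltose. FLD1 (PAS_chr3_1028) encodes the glutathione-dependent formaldehyde dehydrogenase of methanol oxidation and is annotated under tyrosine metabolism. Its S. cerevisiae counterpart Sfa1 can also reduce long-chain and aromatic aldehydes. FLD1 had 10146, 10307 and 10535 FPKM in maltose replicates 1, 2 and 3, against 8315, 5448 and 5246 FPKM in BMMY replicates 1, 2 and 3, a log2 fold change of 0.70 (SE 0.20). FLD1 was 29.6, 26.4 and 22.5 times ARO7 in the maltose libraries, against 21.9, 27.9 and 29.4 times in the BMMY libraries, which overlap. This closeness is not particular to FLD1. The listed genes GAP1 and AGX1, each at a log2 fold change of 0.67, were as near to the 0.67 of ARO7. ALD5 (PAS_chr3_0987), a mitochondrial aldehyde dehydrogenase annotated under tryptophan metabolism, averaged 33.6 ± 5.72 FPKM with maltose and 19.9 ± 5.44 FPKM in BMMY (SD, n = 3 each).

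BNA5 (PAS_chr3_1194) has the symbol of kynureninase, which acts in tryptophan breakdown toward nicotinamide adenine dinucleotide. It was on the lower side with 0.845, 0.851 and 1.48 FPKM in maltose replicates 1, 2 and 3, against 1.96, 3.49 and 3.68 FPKM in BMMY replicates 1, 2 and 3. As for ARO10, maltose replicate 3 was the highest maltose library, and here BMMY replicate 1 was the lowest BMMY library. GAP1 (PAS_chr1-1_0030), a permease of broad amino acid range, averaged 144.0 ± 29.7 FPKM with maltose and 90.7 ± 8.78 FPKM in BMMY (SD, n = 3 each). Scaled to equal FPKM sums, the fold changes shift by a median of -0.86 on the log2 scale: under it FLD1 was at -0.13, ALD5 at -0.09 and GAP1 at -0.21, none past the threshold, and none of them passed with TMM. FLD1, ALD5 and GAP1 also did not pass without BMMY replicate 2 (0.61, 0.60 and 0.59), ALD5 and GAP1 not without maltose replicate 3 (0.61 and 0.49), and ALD5 not without BMMY replicate 3 (0.70).

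ARO8 was next set beside the other listed aminotransferases, of which there were 3 with ARO8 included. CAR2 (PAS_chr3_0410), the ornithine transaminase of arginine breakdown, passed as lower with a log2 fold change of -2.47 (SE 0.21). AGX1 (PAS_chr4_0416), which makes glycine from glyoxylate, passed as higher with 0.67 (SE 0.21). The call for AGX1 was lost without maltose replicate 1 (0.63), BMMY replicate 2 (0.59) or BMMY replicate 3 (0.56) and with TMM (0.20), and its direction turned with equal FPKM sums (-0.17). CAR2 FPKM was 13.9, 11.4 and 13.4 times that of ARO8 in maltose replicates 1, 2 and 3, against 14.6, 13.3 and 8.98 times in BMMY replicates 1, 2 and 3, and these ranges overlap. ARO10 was the one decarboxylase listed.

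**Figure D3:**
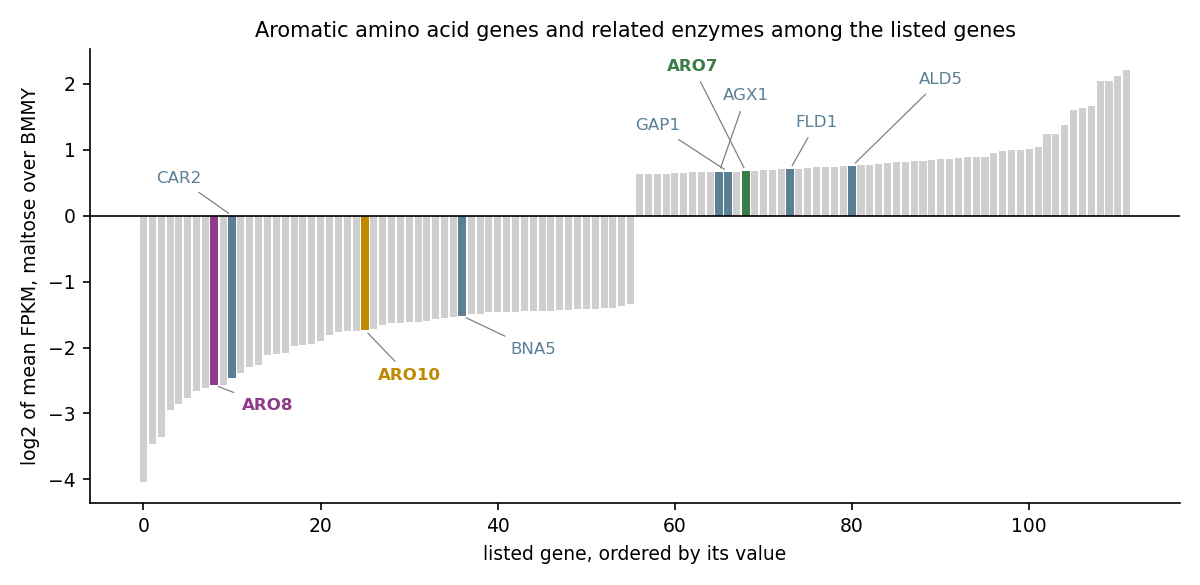
Log2 of the ratio of mean FPKM, maltose over BMMY (vertical axis), for the 112 fitted genes in order of that value, with ARO7, ARO8 and ARO10 and the related aromatic amino acid and aminotransferase genes coloured. The gap around 0 comes from the selection of the list, with ARO8 and ARO10 on the lower side and ARO7 among the smaller positive values at 0.67.

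Listed genes for thiamine and vitamin B6, the vitamins behind the cofactors of Aro10 and the aminotransferases, were also examined. Of the listed aminotransferase and decarboxylase genes, ARO8, CAR2 and ARO10 were lower and AGX1 was higher. Other enzymes that use these cofactors were not searched for. All 5 listed genes with thiamine symbols passed as higher, beside 43.8% of the 112 genes fitted that passed as higher and 93.8% that passed in either direction. Their median log2 fold change was 1.04. THI5 (PAS_chr4_0065), for the pyrimidine part of thiamine, averaged 32641 ± 3209 FPKM with maltose and 7952 ± 1992 FPKM in BMMY, and THI4 (PAS_chr3_0648), the thiazole synthase, averaged 10631 ± 780.1 FPKM with maltose and 5173 ± 916.3 FPKM in BMMY (SD, n = 3 each). The group includes THI73, which is annotated as a putative carboxylic acid permease and not as a thiamine enzyme. With equal FPKM sums THI5 and TPN1 still passed, and the other 4 thiamine genes were between 0.15 and 0.45 and did not. THI73 and THI20, a hydroxymethylpyrimidine kinase gene, did not pass without maltose replicate 3 (1.00 and 0.79) or BMMY replicate 2 (1.05 and 0.79), nor THI20 without BMMY replicate 3 (0.76) or with TMM (0.52). The 1 vitamin B6 gene listed, the transporter gene TPN1, was also higher.

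TPN1 (PAS_chr1-3_0153) is the gene next to ARO8 in the RefSeq gene order, with no annotated gene between. It had 233, 198 and 205 FPKM in maltose replicates 1, 2 and 3, against 83.9, 37.2 and 32.7 FPKM in BMMY replicates 1, 2 and 3. The neighbours moved in opposite directions: TPN1 was 18.0, 13.7 and 13.5 times ARO8 in the maltose libraries, against 0.984, 0.549 and 0.328 times in the BMMY libraries. The log2 ratio of ARO8 to TPN1 shifted by -4.73. Also listed in this stretch is PAS_chr1-3_0151, a nucleolar protein gene of ribosomal RNA processing with 2 genes between it and ARO8. It was higher, averaging 14.2 ± 1.88 FPKM with maltose and 4.65 ± 0.52 FPKM in BMMY. Whether overlapping transcripts share reads in this stretch was not tested, and the strand setting of the counting is not given in the sources used here.

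ARO7 also had listed genes near it, both higher with maltose. Gid4 (PAS_chr4_0047), with 2 genes between, acts in the breakdown of enzymes of gluconeogenesis. Gid4 had 569, 557 and 491 FPKM in maltose replicates 1, 2 and 3, against 385, 69.4 and 64.0 FPKM in BMMY replicates 1, 2 and 3. BMMY replicate 1 was above the others here as it was for ARO7, and by a larger factor. The log2 fold change of Gid4 was 1.64 (SE 0.66) and passed the threshold. Without BMMY replicate 1 it was 3.01 and passed, and without each of the other libraries in turn it was between 1.25 and 1.70 and did not. With equal FPKM sums it was 0.94 and did not pass. PAS_chr4_0058, with no name and 4 genes between, averaged 530 ± 54.4 FPKM with maltose and 114 ± 36.4 FPKM in BMMY. No other listed gene lay within 5 genes of ARO10.

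**Figure D4:**
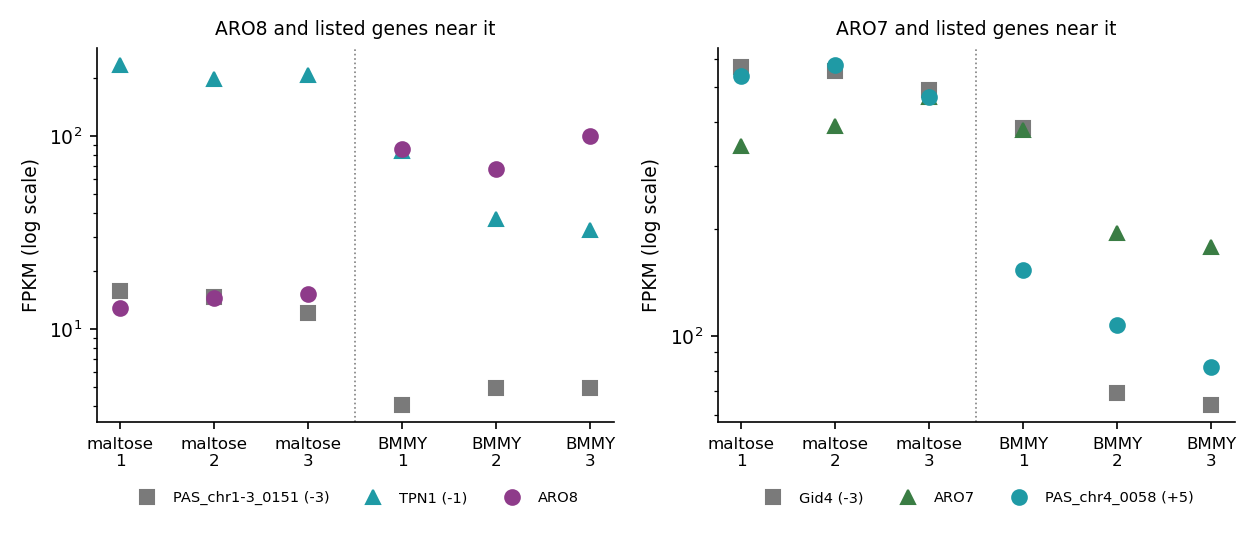
FPKM on a log axis in each library for ARO8 and ARO7 with the other listed genes within 5 genes of each, the offset in the RefSeq gene order given in brackets, and maltose libraries to the left of the dotted line. TPN1 lies at 198 to 233 FPKM in the maltose libraries, far above ARO8, and below ARO8 in the BMMY libraries. In BMMY replicate 1 the 2 are nearly equal, at 83.9 FPKM for TPN1 and 85.3 FPKM for ARO8. ARO7, Gid4 and PAS_chr4_0058 each have a higher mean with maltose, ARO7 with overlapping groups.

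The listed genes with the most similar profiles were found by the root mean square difference of log2 FPKM over the 6 libraries after centring each gene. All of these profiles include the difference between media on which the list was selected, so the values are descriptions. For ARO8 they were ALR1 (PAS_chr2-2_0005), a plasma membrane magnesium transporter, at a distance of 0.23, CAR2 at 0.24, and an arginase gene CAR1 (PAS_chr4_0684) at 0.29. Both CAR genes act in arginine breakdown, and their BMMY levels, at 1013 ± 198.2 FPKM for CAR2 and 1149 ± 205.9 FPKM for this CAR1, were well above that of ARO8.

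For ARO10 the nearest profiles were the unnamed PAS_chr1-1_0328 at 0.12, a glutamate dehydrogenase gene at 0.15 and DAL1 at 0.15. The second of these, PAS_chr2-1_0311 with the symbol gdh-1, is annotated as the enzyme that degrades glutamate to ammonia. It had 7.19, 6.20 and 8.92 FPKM in maltose replicates 1, 2 and 3, against 23.1, 24.0 and 26.6 FPKM in BMMY replicates 1, 2 and 3. DAL1 (PAS_chr1-3_0023), the allantoinase of allantoin breakdown, had 3.48, 3.22 and 4.75 FPKM in maltose replicates 1, 2 and 3, against 10.6, 10.6 and 12.4 FPKM in BMMY replicates 1, 2 and 3. In both, as in ARO10, maltose replicate 3 was the highest maltose library and BMMY replicate 3 the highest BMMY library. Of the 56 fitted genes with negative fold changes, 40 had the first of these orders and 23 the second. Pearson's r with ARO10 over the 6 libraries was 0.99 for gdh-1 and for DAL1. Both genes were picked by their likeness to ARO10 over these libraries, so shared orders and a high r follow from the pick.

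For ARO7 the nearest profiles were a flavin adenine dinucleotide synthetase gene (PAS_chr1-3_0240) at 0.09, the unnamed PAS_chr3_1020 at 0.11 and TEF4 (PAS_chr3_1071), translation elongation factor EF-1 gamma, at 0.12. The first had 690, 726 and 776 FPKM in maltose replicates 1, 2 and 3, against 699, 343 and 310 FPKM in BMMY replicates 1, 2 and 3. BMMY replicate 1 was the highest BMMY library in all 3 of these genes, as in ARO7 and in 47 of the 56 fitted genes with positive fold changes. The pick by likeness to ARO7 favours this order. With equal FPKM sums the log2 fold changes were -0.10 for PAS_chr1-3_0240, -0.18 for PAS_chr3_1020 and 0.03 for TEF4, near that of ARO7. The profiles nearest to ARO7 were closer to it than those nearest to ARO8 were to ARO8. This distance also depends on how many listed genes have a fold change of like size, so nothing is read from that difference.

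**Figure D5:**
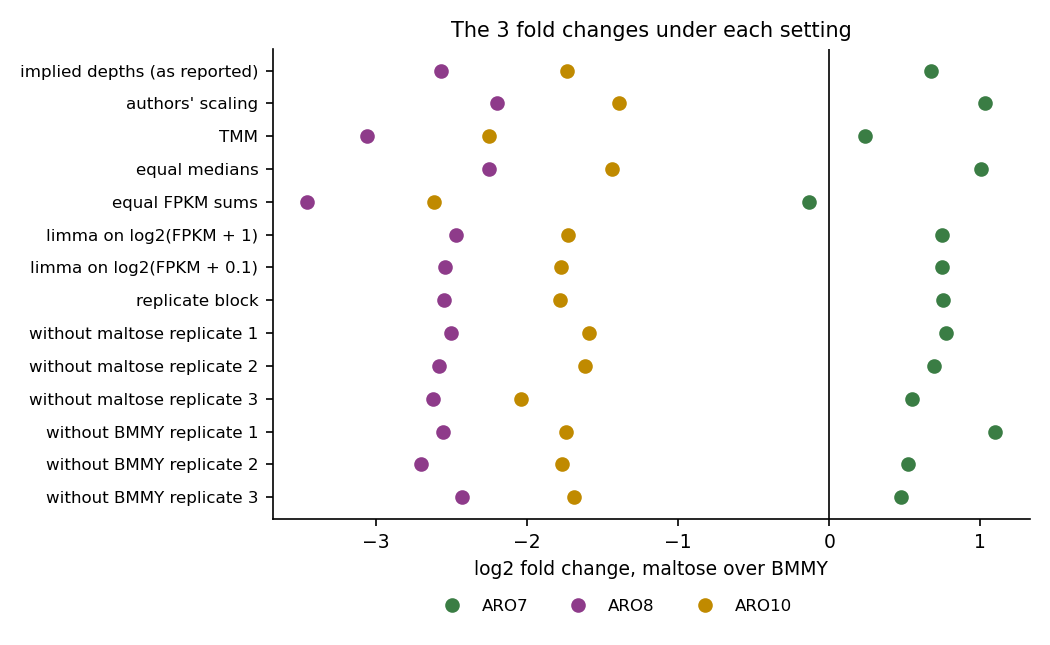
Log2 fold change, maltose over BMMY (horizontal axis), of ARO7, ARO8 and ARO10 with the implied depths and with other scalings between libraries, limma, the replicate number as a block, and each library left out. ARO8 stays between -3.45 and -2.20 and ARO10 between -2.62 and -1.39, while ARO7 runs from -0.13 with equal FPKM sums to 1.10 without BMMY replicate 1.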

How the data were processed

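Libraries were prepared from total RNA using a kit that isolates mRNA, per the labels' protocols. The tools given per the submitters' processing notes, without their roles, are CASAVA, HISAT2 2.2.1 and StringTie. For the genome build, gene annotation and strandedness, the sources used here give nothing. The authors deposited whole-number read counts and FPKM values per library, per the file headers, with a p-value and a log2 fold change per gene of their own comparison, which are not used for any call here. All 115 identifiers matched the RefSeq table of assembly ASM2700v1, used for gene order and gene lengths.

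Each library's depth was taken from the deposited values (counts over FPKM and length, median of the listed genes; 35.3 to 76.1 M fragments) and served as library size, with no TMM factors, in edgeR 4.0.16 (R 4.3.3) with group as the only term. The fit covered the 112 genes whose mean FPKM reached 1, the 3 genes among them; p-values are two-sided and Benjamini-Hochberg adjusted over them, with a threshold of 0.05. A standard error is the absolute log2 fold change divided by the square root of F. The fit was tested on simulated data. Alternatives used DESeq2 1.42.0, limma 3.58.1 on log2(FPKM + 1) or log2(FPKM + 0.1), 4 other scalings, no filter, the replicate number as a block and each library left out.

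The 3 genes, the gene lists and the tests were chosen with earlier results of these data known. Named genes were the 3 genes, listed genes within 5 gene positions of one, listed genes of aromatic amino acid pathways, aminotransferases and decarboxylases, examples of the thiamine and vitamin B6 genes, and the 3 nearest profiles of each gene. No sequences are shown.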

Additional observations from a re-analysis of the deposited data

How the results depend on the processing

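ARO8 and ARO10 were lower with maltose under all 15 alternatives, and the shifts in the ratios between the 3 genes kept their sign under all 9 of theirs. The list was selected on these libraries, so the signs of ARO8, of ARO10 and of their shifts against ARO7 were largely fixed in advance. They are no test. Among the 9, the replicate block gives the main value by construction, and read counts give nearly the same (-3.30 for ARO8 and -2.53 for ARO10 against ARO7). The size of the fold changes followed the scaling between libraries. The median shift over the fitted genes was 0.36 (authors' scaling), -0.49 (TMM), 0.32 (equal medians) and -0.86 (equal FPKM sums). On the log2 scale ARO8 was at -2.20 and ARO10 at -1.39 with the scaling that the authors' deposited fold changes imply, and at -3.06 and -2.25 with TMM. Scaled to equal FPKM sums, they were at -3.45 and -2.62. With equal medians ARO8 was at -2.25. ARO7 was at 0.24 with TMM and turned to -0.13 with equal FPKM sums. With each library left out in turn ARO7 ran from 0.48 to 1.10, ARO8 from -2.70 to -2.43 and ARO10 from -2.04 to -1.59, and 2 to 3 of the 3 genes passed the threshold. ARO7 passed in 6 of 16 settings in all, namely without BMMY replicate 1, with the authors' scaling, equal medians and DESeq2, and in both limma fits. With the replicate number as a block the log2 fold changes were 0.75, -2.55 and -1.78 for ARO7, ARO8 and ARO10, and 2 genes passed. Whether the numbers pair the samples is not settled. Deviations of same-numbered libraries from their group means correlated at -0.15, -0.02 and 0.04 over genes. Those of differently numbered libraries correlated between -0.14 and 0.22, and with 3 libraries per group these values cannot decide it. Genes outside the authors' selection were not analysed here, so no scaling could be anchored on unchanged genes.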
